A study of Mus musculus with 6 samples.

Results

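The type I interferon-stimulated genes were followed in the livers of mice without Sting1 in endothelial cells and in the livers of their littermates. The members were 42 genes taken by symbol: the type I interferon receptor, the factors that carry its signal, and genes known to be induced by it. Of these, 41 had a row among the 21956 genes measured, and all 41 passed the filter on low counts that left 13197 genes tested. No row carried the symbol Mx2, which was not analysed here.

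The knockout group held 3 mice of genotype Stingfl/fl Cdh5-Cre+, and the control group 3 littermates of genotype Stingfl/fl Cdh5-Cre-. Both groups carried the floxed Sting alleles. Both were fed CDAHFD for 10 weeks from 8 weeks of age; this high-fat diet lacks choline, supplies L-amino acids in place of protein and was given to cause steatohepatitis (MASH). Polyadenylated RNA of each liver was sequenced in bulk. Cre was present in the knockout mice only, so that an effect of Cre and an effect of the deletion cannot be told apart. Cdh5, the gene of vascular endothelial cadherin, drives Cre in endothelium, and Cre lines driven by it without an inducer can also delete in blood cells that descend from embryonic endothelium. The sources used here do not give the strain, the sex or whether this Cre is inducible.

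Type I interferons are secreted proteins that bind a receptor made of IFNAR1 and IFNAR2. The receptor's kinases phosphorylate STAT2, which joins IRF9 in a complex called ISGF3. ISGF3 binds the interferon-stimulated response element (ISRE) before many interferon-induced genes. Many of the genes described here block steps of viral replication. STING is an adaptor that passes a signal from cytosolic DNA to the transcription of interferon genes, and in liver it is known from macrophages and endothelial cells, while hepatocytes hold little of it.

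The ISRE is the sequence that ISGF3 binds, and matches to it are shown here for some of the members described below. The promoter windows were RefSeq sequences on GRCm38.p6, 250 bases before to 50 after a gene's start, and 30 members had one. The motif searched, on both strands, was 2 copies of GAAA with 2 bases of any kind between them, which reads as TTTC, 2 bases and TTTC on the other strand; it can overlap itself. Capitals mark its matches, with up to 15 bases of flank, 5′ to 3′ on the gene's own strand. Isg15 held 3 overlapping matches, 78 to 57 bases before its start, Ifit1, Ifit3 and Ifit3b held 2 separate ones each, and the match of Eif2ak2 lay 18 to 27 bases after its start.
Isg15, chr4:156200860-156200911, minus strand: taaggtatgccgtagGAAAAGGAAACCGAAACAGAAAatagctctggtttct
Ifit1, chr19:34640770-34640828, plus strand: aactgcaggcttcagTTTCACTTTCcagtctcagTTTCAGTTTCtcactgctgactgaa
Rsad2, chr12:26456548-26456587, minus strand: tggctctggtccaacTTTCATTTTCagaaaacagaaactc
Eif2ak2, chr17:78882530-78882569, minus strand: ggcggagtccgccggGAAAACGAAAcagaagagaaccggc
Stat2, chr10:128270261-128270300, plus strand: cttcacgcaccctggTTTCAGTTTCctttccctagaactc
Oas3, chr5:120777710-120777749, minus strand: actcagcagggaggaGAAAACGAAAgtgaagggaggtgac

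The neighbours Ifit3 and Ifit3b had the same letters over the whole stretch, and so did Oas1a and Oas1g. These stretches are from the promoter windows and do not bear on the assignment of reads, for which shared transcript sequence is given below.
Ifit3, chr19:34583358-34583431, plus strand: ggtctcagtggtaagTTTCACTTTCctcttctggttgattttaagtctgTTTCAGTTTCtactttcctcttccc
Ifit3b, chr19:34607754-34607827, plus strand: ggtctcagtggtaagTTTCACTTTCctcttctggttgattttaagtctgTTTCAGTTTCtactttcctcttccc
Oas1a, chr5:120907515-120907560, minus strand: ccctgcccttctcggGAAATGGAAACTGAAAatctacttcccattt
Oas1g, chr5:120887601-120887646, minus strand: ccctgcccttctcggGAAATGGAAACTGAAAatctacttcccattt

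The ISRE was matched in the window of 14 of the 30 members (46.7%), against 3.99% of the 27025 genes with a window. The members with a match were Isg15, Ifit1, Ifit3, Ifit3b, Oas1a, Oas1g, Oas3, Rsad2, Bst2, Eif2ak2, Stat2, Ifih1, Ifi203 and Trim30a. A second motif, the gamma-activated site TTCNNNGAA, reads the same on both strands and was matched in 9 of the 30 members (30%) and in 9.55% of genes. A match is a run of letters and was not tested as a binding site.

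Libraries held 18528919 to 20414468 estimated counts in knockout livers and 16704663 to 21025466 in control livers. Control replicate 2 stood apart: its mean correlation with the other libraries was 0.953, against 0.966 to 0.974 for the other 5, and its TMM scaling factor was 1.26, against 0.922 to 1.01. Values below are CPM, estimated counts scaled by TMM library sizes, unless TPM is named. TPM is the deposited unit, which is scaled to gene length, and TMM was not applied to it. Groups of 3 values are replicates 1, 2 and 3. Without TMM the median log2 fold change of all genes tested lay at -0.21, so directions below are relative to that shift, and those that turn with the scaling are named. The deleted gene itself had 5.64, 6.54 and 4.40 CPM in knockout livers, against 12.1, 17.4 and 11.03 CPM in control livers. Its groups did not overlap, with a log2 fold change of -1.29 (edgeR's quasi-likelihood test, adjusted p = 0.357). DESeq2 called it, at -1.28 (adjusted p = 0.00197).

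The labels give liver as the tissue and liver sinusoidal endothelial cells as the cell type. The 6 hepatocyte markers, led by albumin, summed to 123200 to 140000 CPM in knockout livers. In control livers they summed to 113000, 70860 and 121300 CPM, the low value being that of control replicate 2. Of these markers 4 lay above 0 and 2 below (median log2 fold change 0.33), with 1, Tat, lower at an unadjusted p under 0.05 (16.7%, against 7.0% of all genes tested). The 8 sinusoidal endothelial markers summed to 533 to 574 CPM in knockout livers and 418 to 491 CPM in control livers. Hepatocyte markers thus far outweighed endothelial ones in every library. In such bulk tissue fewer cells of a type and less RNA per cell cannot be told apart.

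Most of the interferon-stimulated genes differed little between knockout and control livers. The factors of the pathway (Irf1, Stat2, Irf9 and Irf7), the sensor Zbp1 and the OAS-like gene Oasl1 had log2 fold changes of 0.31 to 0.60. Usp18 and Oas3 lay in the same range, at 0.34 each. The antiviral enzyme Rsad2 (viperin) was lower, at -0.76, and the remaining members lay on both sides of 0. None of the 41 members passed the test at an adjusted p of 0.05, where 0.0% of all genes tested passed it (edgeR, 0 of 13197). The adjusted p of the members ran from 0.367 for Irf1 to 0.996 for Oas1g.

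At an unadjusted p under 0.05, 5 members were higher in knockout livers (12.2%, against 3.75% of all genes tested): Irf1, Zbp1, Oasl1, Stat2 and Irf9. One member, Rsad2, was lower (2.44%, against 7.0% of all genes tested). DESeq2, run as an alternative, called 127 of 13760 genes (0.923%) and no member, with 5 higher and 1 lower at an unadjusted p under 0.05 and a smallest adjusted p of 0.0873 for Irf1. The members' median log2 fold change was 0.089, against 0.0083 over all genes tested, and 25 of 41 members (61.0%) lay above 0, against 51.2% of all genes tested. On unscaled library totals the median was -0.14, against -0.21 over all genes tested, and 11 members lay above 0. Without knockout replicate 2 the median was -0.019 and without control replicate 3 it was -0.010, while it was 0.23 without control replicate 2. The members' median minus that of all genes was 0.081, and ran over the alternatives from -0.021 without control replicate 3 to 0.21 without control replicate 2.

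The same 5 members that were higher at an unadjusted p under 0.05 were those whose groups did not overlap, with knockout above control (12.2%, against 7.25% of all genes tested). No member had all knockout livers below all control livers, where 9.14% of all genes tested did. On unscaled totals no member's groups were apart in either direction, where 1.74% of all genes tested were apart with knockout higher and 19.5% with knockout lower. The 95% intervals of 35 members held 0, and those of 35 lay between -1 and 1, so that a change of 2-fold in either direction was outside them.

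**Figure D1:**
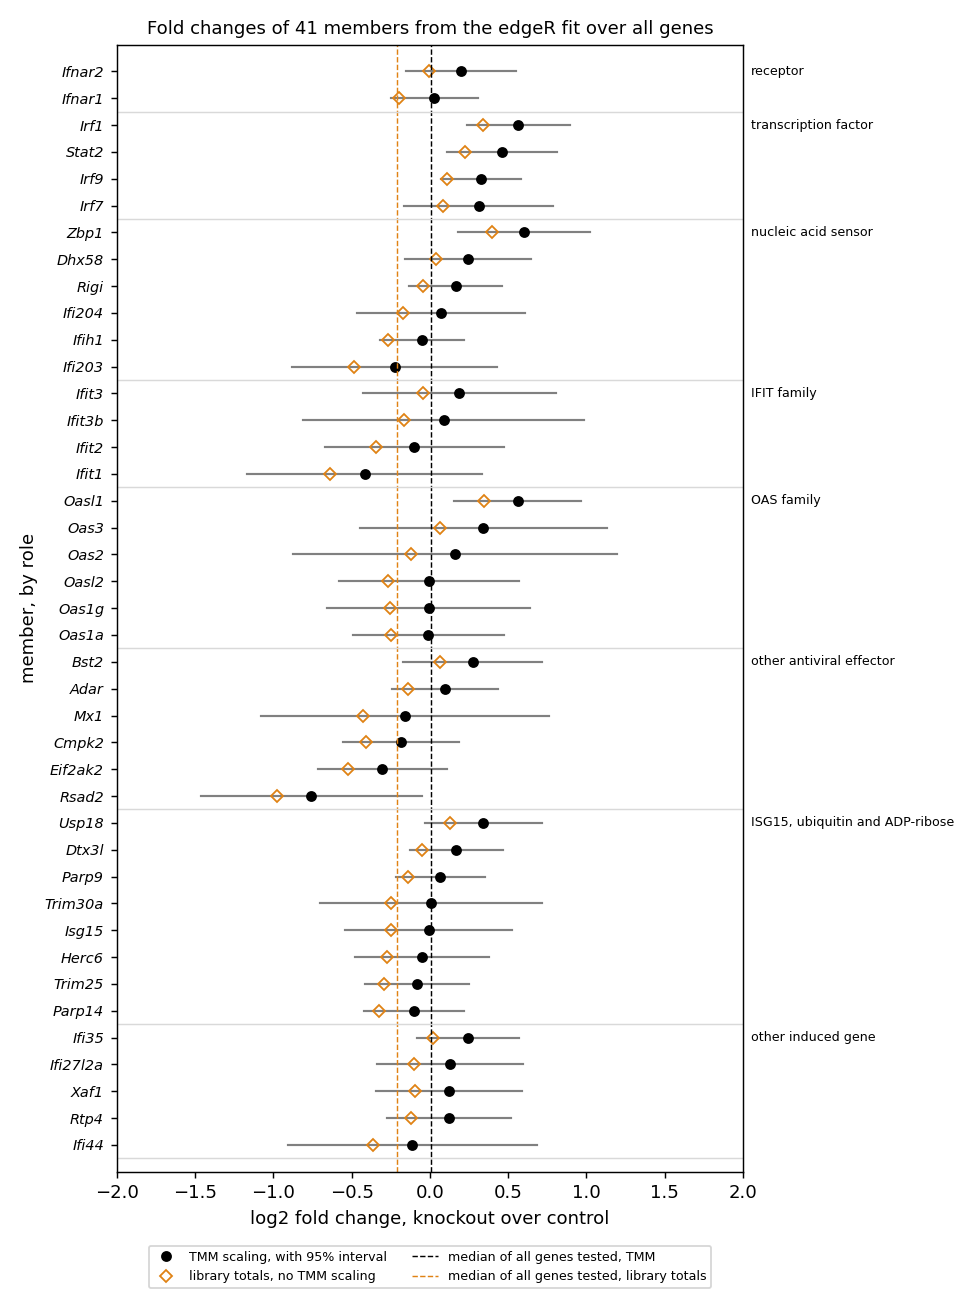
Log2 fold change of each of the 41 members, knockout over control, with its 95% interval, ordered by role. The points run from -0.76 for Rsad2 to 0.60 for Zbp1, and 35 of the 41 intervals cross 0.

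No transcript of the ligands was measured above a few reads. Of 18 type I interferon genes in the table, 16 were at 0 in every library, among them all 14 Ifna genes. The estimated counts of the 18 summed to 1.23, 0 and 0 in knockout livers and to 1.76, 0 and 1 in control livers. A count of 0 allows up to 3 counts, or 0.143 to 0.18 CPM in these libraries. Interferon gamma, the type II ligand, had 0, 2 and 3 counts in knockout livers and 0, 4 and 0 in control livers. At this depth no difference in any ligand was detectable.

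Both receptor chains were well measured and close between the groups. Ifnar2, the chain with a soluble form besides the membrane one, was the more abundant at 92.0 TPM over all livers, against 27.9 TPM for Ifnar1. Ifnar1 had 52.9, 60.7 and 58.5 CPM in knockout livers, against 56.2, 60.0 and 52.5 CPM in control livers. Its log2 fold change was 0.029 (95% interval -0.25 to 0.30). Ifnar2 had 78.8, 61.3 and 70.3 CPM in knockout livers, against 68.1, 51.4 and 64.0 CPM in control livers (0.20, interval -0.15 to 0.55). The groups of both chains overlapped, and without TMM both values lay below 0, at -0.20 for Ifnar1 and -0.0039 for Ifnar2. Of the 100-base windows of the longest Ifnar2 transcript 7.33% were also in the model Gm21970, so that its reads may be split.

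The 4 transcription factors were the family with the highest median log2 fold change, 0.39, and all 4 lay above 0 in the main analysis and in each of the 15 alternatives. IRF1, a factor induced by interferon gamma and by type I interferon, binds sites much like the ISRE. Irf1 (chr11:53770014-53778374, plus strand, GRCm38) had 44.2, 43.1 and 40.1 CPM in knockout livers, against 23.7, 30.9 and 31.6 CPM in control livers. Its means were 42.5 ± 2.12 CPM in knockout livers and 28.7 ± 4.40 CPM in control livers (SD, n = 3 each), and every knockout liver lay above every control liver. The log2 fold change was 0.57 ± 0.14 (SE), with an interval of 0.24 to 0.89 (edgeR, adjusted p = 0.367).

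Stat2, which encodes the subunit of ISGF3 that activates transcription, had 37.9, 44.4 and 44.8 CPM in knockout livers, against 26.4, 36.8 and 29.3 CPM in control livers. The lowest knockout liver and the highest control liver were close, and the log2 fold change was 0.46 ± 0.15 (SE; edgeR, adjusted p = 0.381). Irf9, the DNA-binding subunit of ISGF3, had 37.4, 37.1 and 38.0 CPM in knockout livers, against 30.6, 30.8 and 28.2 CPM in control livers. Irf9 varied the least of the factors within the groups, with means of 37.5 ± 0.458 CPM in knockout livers and 29.9 ± 1.44 CPM in control livers (SD, n = 3 each). Its log2 fold change was 0.33 ± 0.11 (SE; edgeR, adjusted p = 0.387).

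Irf7 encodes the factor that amplifies interferon transcription and was the most abundant of the 4, at 38.0 TPM. It had 30.6, 48.1 and 53.6 CPM in knockout livers, against 31.5, 40.5 and 34.6 CPM in control livers. Knockout replicate 1 lay below all control livers and the other 2 knockout livers above them (0.31 ± 0.21 SE). Its value was 0.52 without knockout replicate 1 and 0.15 without knockout replicate 3. Without TMM the 4 values shrank to 0.34 for Irf1, 0.22 for Stat2, 0.11 for Irf9 and 0.081 for Irf7. On unscaled totals control replicate 2 was within or above the knockout range for Irf1, Stat2 and Irf9, at 38.9, 46.2 and 38.7 CPM. The exact two-sided permutation test on log2(TPM + 1) gave 0.3 for Irf1, 0.4 for Stat2, 0.7 for Irf9 and 1.0 for Irf7, where 0.1 is the smallest p that 3 against 3 allows. TPM has no TMM scaling, so these values are not on the scale of the CPM above.

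**Figure D2:**
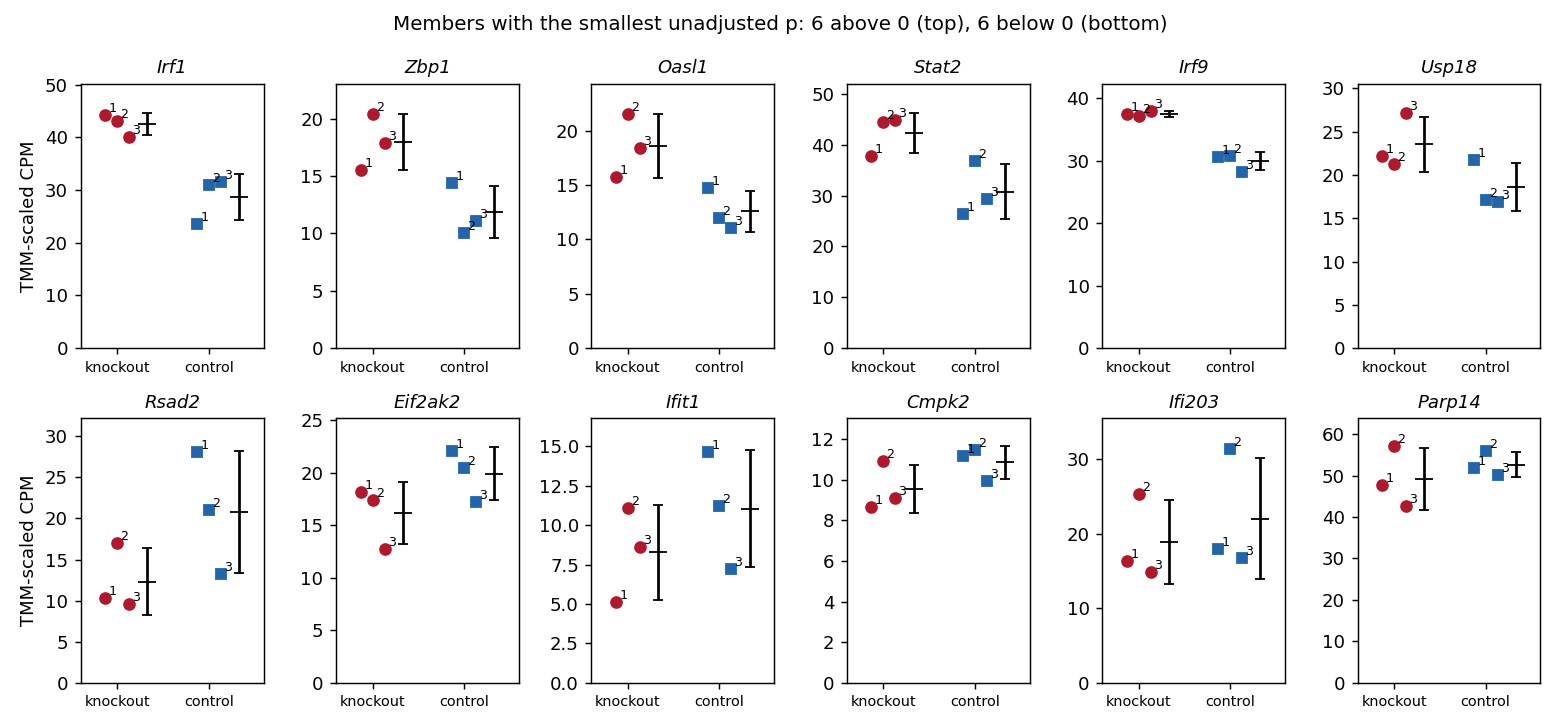
CPM in each liver (points) with group mean and SD for the 6 members with the smallest unadjusted p above 0 and the 6 below 0. Irf1, Zbp1, Oasl1, Stat2 and Irf9 have all 3 knockout livers above the 3 control livers, and none of the 6 lower members is free of overlap.

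Among 6 sensors of nucleic acids, 4 lay above 0 and 2 below, and without TMM 2 lay above 0. ZBP1 senses Z-form nucleic acids and can start necroptosis. Zbp1 (chr2:173206612-173218923, minus strand) had 15.5, 20.4 and 17.9 CPM in knockout livers, against 14.4, 10.1 and 11.1 CPM in control livers. Its means were 18.0 ± 2.45 CPM in knockout livers and 11.8 ± 2.27 CPM in control livers (SD, n = 3 each). The groups were apart by about 1 CPM, and the log2 fold change of 0.60 ± 0.18 (SE) was the highest of all members (interval 0.18 to 1.02; edgeR, adjusted p = 0.381). On unscaled totals knockout replicate 1, at 14.3 CPM, lay just below control replicate 1, at 14.6 CPM.

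The other sensors overlapped between the groups. Ifi204, a DNA-binding gene of the interferon-inducible p200 family, had 29.0, 38.8 and 21.7 CPM in knockout livers, against 23.0, 35.5 and 26.5 CPM in control livers (0.072 ± 0.24 SE). Of its 100-base windows 16.8% were also in Ifi211, so its counts are uncertain. Ifi203, of the same family, had 16.3, 25.4 and 14.95 CPM in knockout livers, against 18.0, 31.4 and 16.8 CPM in control livers (-0.23 ± 0.29 SE). In both genes replicate 2 was the highest of its group, in knockout and control livers alike. Rigi and Ifih1, which encode the RNA helicases RIG-I and MDA5, had 0.16 and -0.048, and Dhx58, which encodes their relative LGP2, had 0.24. Without TMM the values of Rigi and Ifi204 turned below 0, at -0.046 and -0.17, and that of Ifi204 did so without knockout replicate 2 or control replicate 1.

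The IFIT proteins bind foreign RNA ends and block its translation, and their 4 genes lie in a cluster on chromosome 19. They showed no common direction: Ifit3 and Ifit3b lay above 0, Ifit1 and Ifit2 below, and all 4 below 0 without TMM. Ifit1 had 5.11, 11.1 and 8.63 CPM in knockout livers, against 14.7, 11.2 and 7.22 CPM in control livers. The groups overlapped widely (-0.42 ± 0.33 SE, interval -1.17 to 0.33, and -0.64 without TMM). Ifit2 ran from 11.3 to 16.0 CPM in knockout livers and from 9.17 to 17.1 CPM in control livers (-0.10).

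Ifit3 had 15.5, 23.0 and 18.2 CPM in knockout livers, against 20.9, 18.7 and 10.2 CPM in control livers. Ifit3b had 4.10, 5.62 and 4.56 CPM in knockout livers, against 5.56, 5.95 and 1.90 CPM in control livers. Control replicate 3 was the lowest liver for both. Of the 100-base windows of the longest transcript, 31.7% of Ifit3 were also in Ifit3b and 27.4% of Ifit3b in Ifit3. Their estimated counts were not whole, but summed to whole numbers (within 0.015) in all 6 libraries, so the split between the 2 genes is uncertain. Their sum was 23.7 ± 4.57 CPM in knockout livers and 21.1 ± 7.82 CPM in control livers (SD, n = 3 each), with overlapping groups.

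The OAS genes encode synthetases whose product activates RNase L, and their 6 members lay on chromosome 5. Their log2 fold changes ran from -0.0093 to 0.56, with 3 above 0, of which Oas2 turned below 0 without TMM, and 3 at -0.0093 or nearer to 0. Oasl1, whose mouse protein lacks the synthetase activity and restrains translation of Irf7, had 15.7, 21.6 and 18.4 CPM in knockout livers, against 14.7, 12 and 11.1 CPM in control livers. Its means were 18.6 ± 2.92 CPM in knockout livers and 12.6 ± 1.89 CPM in control livers (SD, n = 3 each), and the groups did not overlap. The log2 fold change was 0.56 ± 0.18 (SE; edgeR, adjusted p = 0.381), and 0.35 without TMM.

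The neighbouring Oasl2 had 16.3, 20.4 and 16.8 CPM in knockout livers, against 15.7, 25.4 and 12.5 CPM in control livers (-0.0056 ± 0.25 SE). Here the control livers spanned the whole knockout range. Oas1a had 12.98, 16.9 and 12.6 CPM in knockout livers, against 10.9, 18.0 and 13.9 CPM in control livers. Oas1g had 3.67, 4.76 and 4.12 CPM in knockout livers, against 4.14, 5.57 and 2.88 CPM in control livers. These 2 genes shared 40.9% and 38.2% of their windows and again had whole summed counts in all 6 libraries. The sum was 18.3 ± 2.84 CPM in knockout livers and 18.4 ± 4.48 CPM in control livers (SD, n = 3 each). Oas2 and Oas3 were scarce, at 2.01 and 3.70 TPM, and replicate 2 was the highest of its group in both genes and both groups (0.16 and 0.34). The value of Oas3 ran from 0.11 without control replicate 1 to 0.86 without control replicate 2, and that of Oas2 from -0.24 to 0.76.

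Among the other antiviral effectors 2 lay above 0 and 4 below, and without TMM only Bst2 lay above 0. Viperin, the product of Rsad2, makes a chain-terminating nucleotide that stops viral polymerases. Rsad2 (chr12:26442746-26456452, minus strand) had 10.3, 17.0 and 9.62 CPM in knockout livers, against 28.1, 21.0 and 13.2 CPM in control livers. Its means were 12.3 ± 4.07 CPM in knockout livers and 20.8 ± 7.46 CPM in control livers (SD, n = 3 each). Knockout replicate 2 lay above control replicate 3, so that the groups overlapped. The log2 fold change was -0.76 ± 0.31 (SE), with an interval of -1.46 to -0.051 (edgeR, adjusted p = 0.443), and it lay below 0 in each of the 15 alternatives. It was -0.47 to -1.06 as single libraries were left out, and -0.98 without TMM. The unadjusted p (edgeR) was 0.109 and 0.130 without knockout replicate 1 or 3, and 0.161 and 0.0839 without control replicate 1 or 2. It was 0.00992 without knockout replicate 2 and 0.00679 without control replicate 3. The exact two-sided permutation test on log2(TPM + 1) gave 0.2.

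The neighbour of Rsad2, Cmpk2, encodes a mitochondrial kinase that supplies the nucleotide viperin converts. It had 8.67, 10.9 and 9.12 CPM in knockout livers, against 11.2, 11.5 and 9.95 CPM in control livers (-0.18 ± 0.16 SE). Eif2ak2 encodes PKR, which halts translation on binding double-stranded RNA, and had 18.2, 17.4 and 12.8 CPM in knockout livers, against 22.1, 20.4 and 17.2 CPM in control livers (-0.30 ± 0.18 SE). For Cmpk2, 2 of the knockout livers lay below all control livers, and for Eif2ak2 only knockout replicate 3 did. Neither reached an unadjusted p of 0.05 in the main analysis. Without TMM, where the median of all genes tested lay at -0.21, Cmpk2 had -0.41 and Eif2ak2 -0.53. That value of Eif2ak2 had an unadjusted p of 0.0405 (edgeR).

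Bst2, which encodes tetherin, an anchor that holds budding virions on the cell, was the most abundant member at 124 TPM. It had 44.3, 64.8 and 68.0 CPM in knockout livers, against 41.8, 46.2 and 58.4 CPM in control livers (0.27 ± 0.19 SE), with overlapping groups. Adar, an editor of double-stranded RNA, had 32.7, 27.6 and 30.3 CPM in knockout livers, against 24.4, 32.8 and 27.5 CPM in control livers (0.096, and -0.14 without TMM). Exons of Adar overlap 1365 bases of Chrnb2 on the opposite strand, and their counts summed to whole numbers in all 6 libraries, so the split between them is uncertain. The sum was 30.9 ± 2.7 CPM in knockout livers and 29.5 ± 3.75 CPM in control livers (SD, n = 3 each). Mx1, a GTPase against influenza virus in mice that carry an intact allele, was the least abundant member at 1.98 TPM, with 1.59 to 2.93 CPM in knockout livers and 1.66 to 4.0 CPM in control livers.

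Members that attach or remove ISG15, ubiquitin or ADP-ribose were even, with 4 above 0 and 4 below, and without TMM only Usp18 lay above 0. Isg15 encodes the ubiquitin-like modifier itself. It had 5.64, 7.92 and 6.32 CPM in knockout livers, against 6.52, 8.24 and 5.22 CPM in control livers (-0.0087, interval -0.54 to 0.52). The control range held all knockout livers. Usp18, which encodes the protease that removes ISG15 and also blocks IFNAR2, had 22.2, 21.3 and 27.2 CPM in knockout livers, against 21.8, 17.1 and 16.9 CPM in control livers (0.34 ± 0.16 SE). Only knockout replicate 2 was below the highest control liver, and the unadjusted p was 0.0681 (edgeR).

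Trim25, a ubiquitin ligase that acts on RIG-I signalling, was the most abundant of these at 31.1 TPM. It had 77.6, 95.6 and 99.7 CPM in knockout livers, against 105, 90.4 and 93.2 CPM in control livers (-0.082). Parp9 had 53.0, 54.3 and 47.5 CPM in knockout livers, against 54.0, 44.9 and 48.8 CPM in control livers (0.067, and -0.14 without TMM). PARP9 works in a complex with DTX3L, whose gene (0.17, and -0.054 without TMM) shares 458 exonic bases with Parp9 on the opposite strand, and their summed counts were whole in all 6 libraries. The split between Parp9 and Dtx3l is therefore uncertain. Their sum was 122 ± 3.5 CPM in knockout livers and 112 ± 9.1 CPM in control livers (SD, n = 3 each), overlapping by 1 control liver.

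Parp14, a mono-ADP-ribosyltransferase, had 47.6, 57.2 and 42.5 CPM in knockout livers, against 51.9, 55.9 and 50.2 CPM in control livers (-0.10 ± 0.14 SE). Herc6, which encodes the main ligase for ISG15 in mice, had -0.049, and Trim30a, a TRIM gene that restrains inflammatory signalling, had 0.0087. The counts of Trim30a were whole only in sum with Trim30d, and that sum was 25.6 ± 10.4 CPM in knockout livers and 27.5 ± 8.57 CPM in control livers (SD, n = 3 each). Of the Herc6 windows 20.9% were also in Gm45193.

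The last 5 members are induced genes of varied function, of which 4 lay above 0 and, without TMM, only Ifi35. Ifi27l2a, which encodes a small mitochondrial or nuclear membrane protein, had 8.88, 13.8 and 11.8 CPM in knockout livers, against 9.40, 12.3 and 9.76 CPM in control livers (0.13). Rtp4, which encodes a chaperone of receptors, had 17.3, 19.7 and 16.8 CPM in knockout livers, against 16.6, 19.7 and 13.3 CPM in control livers (0.12). Of the Rtp4 windows 11.2% were also in Gm45338. Both genes overlapped between the groups and lay below 0 without TMM, at -0.10 and -0.12. Ifi35 had 0.25, Xaf1, an antagonist of an inhibitor of apoptosis, 0.12, and Ifi44 -0.11.

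**Figure D3:**
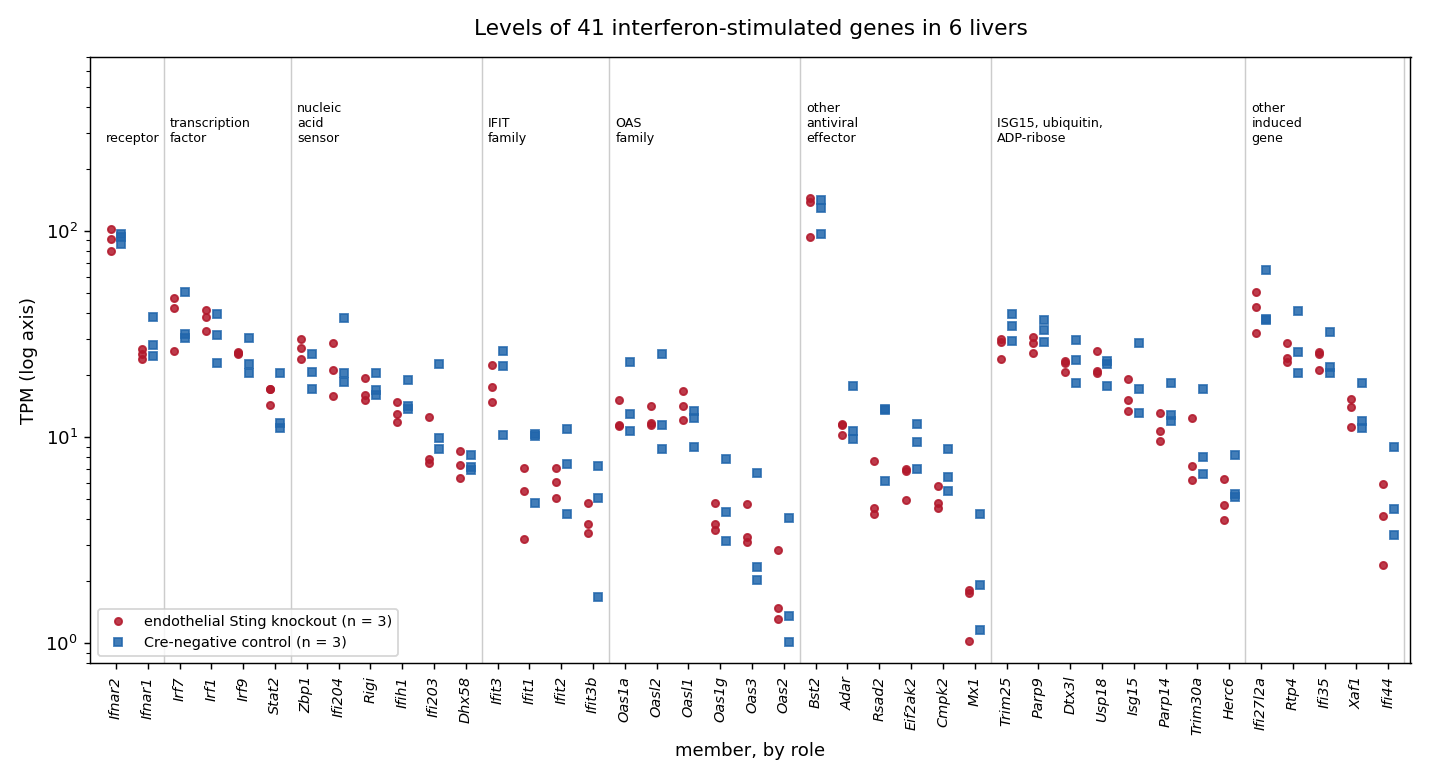
TPM of each of the 41 members in each liver on a log axis, by role, knockout livers left of control livers. Levels run from about 2 TPM for Mx1 and Oas2 to 124 TPM for Bst2, and no member was absent from any liver.

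Many members were highest in the same libraries of each group. Within the knockout group replicate 2 was the highest for 28 of 41 members, replicate 3 for 7 and replicate 1 for 6. Within the control group replicate 2 was the highest for 24 and replicate 1 for 14, and replicate 3 was the lowest for 23. Of all 6 livers, knockout replicate 2 was the highest for 16 members and control replicate 3 the lowest for 14. The tally was not made over all genes tested, so this order is not shown to be particular to the members. The ratio of the highest to the lowest liver within a group had a median over members of 1.36 in knockout livers and 1.35 in control livers. Markers of monocytes and recruited macrophages had their highest sum in the same replicates, at 1113, 1198 and 738 CPM in knockout livers and 739, 1148 and 940 CPM in control livers (6 of 6 markers measured, none at 0 in every library). Knockout replicate 1, the lowest of its group for 19 members, was close to replicate 2 in this sum. No other marker list had its highest sum in replicate 2 of both groups. The match was found by looking over all the marker lists, and with 3 livers a group it can arise by chance. The part of any cell type in the members' order was not tested.

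**Figure D4:**
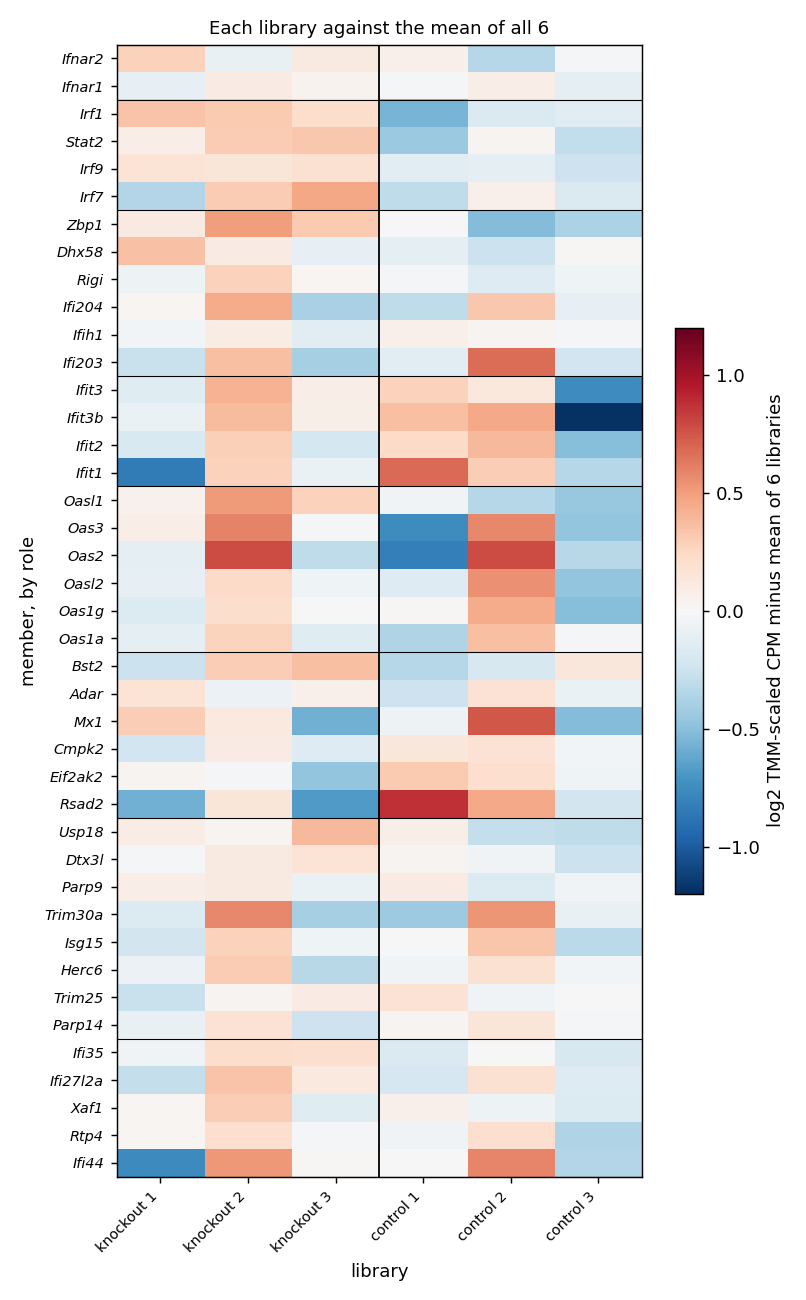
Log2 CPM of each member in each liver, centred on the member's mean over the 6 livers, with knockout livers left of control livers. Knockout replicate 2 and control replicate 2 are the highest of their group for 28 and 24 members, in a tally made over the members only.

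Markers of other cell types in the liver lay on both sides of 0 in the same comparison. The 7 Kupffer cell markers summed to 898, 994 and 772 CPM in knockout livers and to 406, 491 and 770 CPM in control livers, so that the lowest knockout liver and the highest control liver were nearly equal. All 7 lay above 0 (median 0.76), and 4 did so at an unadjusted p under 0.05 (57.1%, against 3.75% of all genes tested). The 8 sinusoidal endothelial markers had 7 above 0 (median 0.40), 5 of them at an unadjusted p under 0.05 (62.5%, against 3.75%). The 8 T and natural killer cell markers had 6 above 0 (median 0.48), with sums of 13.7 to 29.8 CPM in knockout livers and 10.9 to 14.1 CPM in control livers. The 5 cholangiocyte markers all lay below 0 (median -1.51), 4 of them at an unadjusted p under 0.05 (80.0%, against 7.0% of all genes tested). Their sums were 37.9, 10.5 and 20.4 CPM in knockout livers and 55.3, 91.6 and 32.1 CPM in control livers. Of the 5 stellate cell markers 4 lay below 0 (median -0.21), 1 of them at an unadjusted p under 0.05 (20.0%, against 7.0%). Their sums were 282 to 289 CPM in knockout livers and 385, 456 and 306 CPM in control livers. Control replicate 2, which stood apart from the other libraries, had the highest cholangiocyte and stellate sums. The 4 plasmacytoid dendritic cell markers tested all lay below 0 (median -0.20), while the sums of all 6 overlapped, at 43.7 to 85.8 CPM in knockout livers and 42.0 to 87.5 CPM in control livers. Without TMM the medians were 0.56 for Kupffer cells, 0.20 for sinusoidal endothelium, 0.23 for T and natural killer cells and 0.15 for hepatocytes. They were -1.77 for cholangiocytes, -0.41 for stellate cells, -0.44 for plasmacytoid dendritic cells and -0.19 for monocytes and recruited macrophages, against -0.21 over all genes tested. No marker of any list was at 0 in every library. None of these markers passed the test at an adjusted p of 0.05 in edgeR, while DESeq2 called the T cell marker Cd8a (1.65, adjusted p = 0.0152) and the cholangiocyte marker Cftr (-1.86, adjusted p = 0.0379). Markers of the same cell type are not independent of each other, and the lists were chosen with earlier results of these data known. The shares above are therefore descriptions and not tests of a list. The part of these cell types in the values of Irf1, Stat2, Irf9, Zbp1, Oasl1 and Rsad2 was not tested.

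Other genes of the pathway also lay on both sides of 0. In the sensing branch upstream of interferon, 10 of 16 genes lay above 0 and 6 below (median 0.075), with 2 higher (12.5%, against 3.75% of all genes tested) and 1 lower (6.25%, against 7.0%) at an unadjusted p under 0.05. The lower one was Sting1 itself, and the higher ones were Mavs, the adaptor of RIG-I and MDA5, at 0.60 ± 0.18 (SE), and Irf5, a factor downstream of Toll-like receptors, at 0.34 ± 0.13 (SE). Among 10 genes of signalling at the receptor, 6 lay above 0. At an unadjusted p under 0.05, 1 was higher (10.0%, against 3.75% of all genes tested) and 1 lower (10.0%, against 7.0%). Irf2, a competitor of IRF1, had 0.38 ± 0.12 (SE), and Jak2, a kinase of the interferon gamma receptor, had -0.48 ± 0.17 (SE).

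Of 11 negative regulators tested, 3 lay above 0 and 8 below (median -0.048). At an unadjusted p under 0.05, 1 was higher (9.09%, against 3.75% of all genes tested) and 1 lower (9.09%, against 7.0%). Irf2bp2, a corepressor with IRF2, had -0.68 ± 0.18 (SE), Socs3, an inhibitor of JAK kinases, had 0.46 ± 0.20 (SE), and Ptpn6, which encodes the phosphatase SHP-1, had 0.33 ± 0.16 (SE). Of 47 further interferon-induced genes tested, 29 lay above 0 and 18 below (median 0.042), with 2 higher and 0 lower at an unadjusted p under 0.05. The 2 were 4.26% of the list, close to the 3.75% of all genes tested. They were Znfx1, an RNA helicase-like sensor, at 0.34 ± 0.11 (SE), and Helz2, a helicase and coactivator, at 0.33 ± 0.12 (SE). Ifitm2, a block to viral entry, had 0.26 ± 0.13 (SE). No gene of the 4 lists passed at an adjusted p of 0.05 (edgeR, smallest 0.357 for Sting1), DESeq2 called Sting1 alone of them, and without TMM their medians were -0.17, -0.17, -0.27 and -0.18, against -0.21 over all genes tested.

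**Figure D5:**
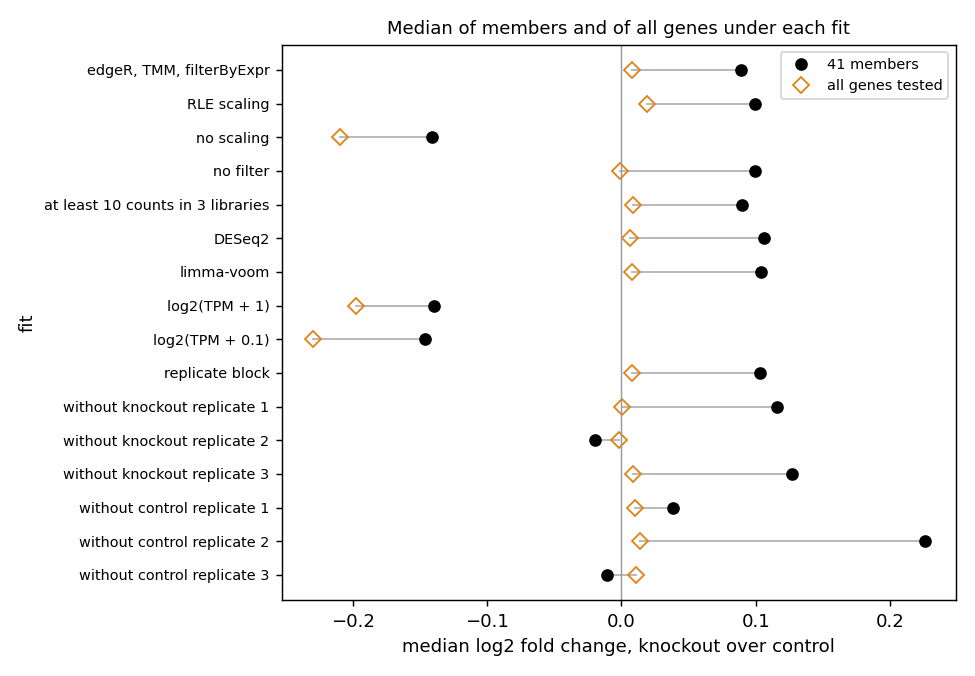
Median log2 fold change of the members and of all genes tested, under the main analysis and each alternative. The members' median is 0.089 in the main analysis and lies between -0.15 and 0.23 over the alternatives, beside a median of all genes that drops to about -0.2 where TMM is not used.

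The members whose window held an ISRE match did not have the higher median. Of the 14 with a match 6 lay above 0, with a median log2 fold change of -0.0073. Of the 16 with a window and no match 10 lay above 0, with a median of 0.11. Stat2 and Rsad2, whose matches are printed above, stood near the upper and at the lower end of the members. Irf1, Irf9 and Oasl1, also near the upper end, had a window and no match, and Zbp1 had no window.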

How the data were processed

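RNA of 6 mouse livers, 3 knockout and 3 control, was read from 1 deposited table. The authors deposited estimated counts per gene and TPM. GRCm38 and the tools RSEM 1.3.3, HISAT2 2.2.1, DESeq2 1.38.3 and fastp 0.23.2 are named in the submitters' processing notes, without their roles. Libraries were strand-specific per the labels' protocols. Use of the strand in counting is not stated there. The counts of Adar and Chrnb2, and of Dtx3l and Parp9, were whole in all 6 libraries only as sums. Reads thus appear to have been divided between genes on opposite strands.

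The estimated counts, of which 6.93% were not whole, were rounded. Knockout was compared with control in edgeR 4.0.16 (R 4.3.3; TMM, filterByExpr, robust quasi-likelihood test, Benjamini-Hochberg at 0.05 over 13197 genes), after the steps were tested on simulated data with 200 genes changed. Alternatives were RLE or no scaling, other filters, DESeq2 1.42.0, limma 3.58.1 on voom values and on log2(TPM + 1) or log2(TPM + 0.1), a replicate block and each library left out. Positions came from GENCODE M21 (GRCm38), promoters from RefSeq (GRCm38.p6). Standard errors were derived from the F statistic. No libraries of a group were repeats.

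Members and gene lists were chosen with earlier results of these data known. Every member is named. Values per library are given for the 6 smallest p in each direction, the 2 highest TPM of each role, the pairs Ifit3 and Ifit3b and Oas1a and Oas1g, the receptor and Sting1. From other pathway lists up to 3 genes with the smallest p are named; 1 such gene is not reported here.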

Additional observations from a re-analysis of the deposited data

How the results depend on the processing

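In none of the 15 alternatives was a member called at an adjusted p of 0.05. All genes called numbered 0 in the main analysis, 127 with DESeq2, 5 with the replicate block and 0 to 2 as single libraries were left out; the 2 came without control replicate 2 or 3, and the other alternatives called 0. At an unadjusted p under 0.05 the members counted 5 higher and 1 lower in the main analysis and 0 and 2 (Rsad2 and Eif2ak2) with no scaling. They counted 0 and 1 on either TPM scale, and 3 to 7 higher and 0 to 1 lower as libraries were left out. The members' median was 0.089 in the main analysis, -0.141 with no scaling, -0.14 on log2(TPM + 1), -0.146 on log2(TPM + 0.1) and -0.019 to 0.226 as libraries were left out. The count above 0 was 25 in the main analysis, 11, 9 and 9 in the first 3 of these, where 24, 23 and 25 members lay above the median of all genes, and 19 to 34 as libraries were left out.

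The replicate numbers were not taken as pairs in the main analysis. Deviations of same-numbered knockout and control livers correlated at 0.115, -0.00678 and 0.133, and not every liver correlated best with its own number. With so few livers a group, whose deviations depend on each other, this check cannot exclude a pairing. The replicate block gave a member median of 0.103, with 29 above 0 and 0 called.

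Of 41 members 14 kept their sign in every alternative, with these ranges as single libraries were left out: Stat2 (0.37 to 0.614), Irf9 (0.293 to 0.358), Irf7 (0.151 to 0.523), Irf1 (0.454 to 0.643), Zbp1 (0.501 to 0.775), Ifit1 (-0.681 to -0.151), Oas3 (0.11 to 0.857), Oasl1 (0.443 to 0.696), Rsad2 (-1.06 to -0.468), Cmpk2 (-0.285 to -0.114), Bst2 (0.164 to 0.448), Eif2ak2 (-0.394 to -0.156), Usp18 (0.229 to 0.482) and Parp14 (-0.221 to -0.00354). The others changed sign in at least 1, with these log2 fold changes. With RLE scaling, 4 turned: Oas1a (0.000954), Oas1g (0.00489), Oasl2 (0.00511) and Isg15 (0.00174). With no scaling, 14 turned: Ifnar1 (-0.197), Ifnar2 (-0.00391), Rigi (-0.0462), Ifi204 (-0.17), Ifit3 (-0.0467), Ifit3b (-0.166), Oas2 (-0.12), Adar (-0.14), Trim30a (-0.246), Dtx3l (-0.0535), Parp9 (-0.141), Ifi27l2a (-0.104), Rtp4 (-0.119) and Xaf1 (-0.0929). With no filter, 3 turned: Oas1g (0.00362), Oasl2 (0.00402) and Isg15 (0.000675). With DESeq2, 4 turned: Oas1a (0.00642), Oas1g (0.0105), Oasl2 (0.0113) and Isg15 (0.00721). With limma-voom, 4 turned: Oas1a (0.00284), Oas1g (0.0324), Oasl2 (0.0481) and Trim30a (-0.00378). On log2(TPM + 1), 16 turned: Ifnar1 (-0.224), Ifnar2 (-0.0233), Rigi (-0.0807), Dhx58 (-0.00621), Ifi204 (-0.18), Ifit3 (-0.0146), Ifit3b (-0.0409), Oas2 (-0.0386), Adar (-0.139), Trim30a (-0.219), Dtx3l (-0.0697), Parp9 (-0.211), Ifi27l2a (-0.124), Ifi35 (-0.0177), Rtp4 (-0.143) and Xaf1 (-0.00653). On log2(TPM + 0.1), 16 turned: Ifnar1 (-0.231), Ifnar2 (-0.0236), Rigi (-0.0849), Dhx58 (-0.00767), Ifi204 (-0.187), Ifit3 (-0.0103), Ifit3b (-0.00114), Oas2 (-0.0083), Adar (-0.147), Trim30a (-0.237), Dtx3l (-0.0715), Parp9 (-0.217), Ifi27l2a (-0.126), Ifi35 (-0.0176), Rtp4 (-0.146) and Xaf1 (-0.0056). With the replicate block, 4 turned: Oas1a (0.00701), Oas1g (0.0315), Oasl2 (0.0479) and Isg15 (0.00146). As single libraries were left out, sign changes came within these ranges: Oas1a (-0.158 to 0.199), Oas1g (-0.212 to 0.26), Oasl2 (-0.202 to 0.345), Isg15 (-0.152 to 0.181), Trim25 (-0.15 to 0.0242), Ifi44 (-0.444 to 0.194), Ifnar1 (-0.0149 to 0.0884), Ifi204 (-0.159 to 0.273), Ifit3b (-0.271 to 0.359), Oas2 (-0.244 to 0.757), Trim30a (-0.331 to 0.326), Ifi27l2a (-0.0194 to 0.288), Ifih1 (-0.104 to 0.0078), Mx1 (-0.403 to 0.275), Herc6 (-0.234 to 0.0936), Ifi203 (-0.493 to 0.125), Ifit2 (-0.321 to 0.0866), Ifit3 (-0.0621 to 0.396) and Rtp4 (-0.0104 to 0.273). Apart from the effect of scaling on all genes, the cause was not tested.

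Estimated counts of the members ran from 29 to 2086 per library. With 3 livers a group, 6 members had intervals that reached beyond -1 or 1. The exact permutation test could not go below 0.1. The 3 livers of a group were labelled as biological replicates, and the p-values measure the spread between them. Intervals and limits at 0 counts cover counting error or liver spread, not a difference in litter, cage or dissection.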
